A study of Mus musculus with 12 samples.

Results

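Cells treated for 24 h with cytochalasin D and CK666 together (CytoD+CK666, here also the combination) were compared with untreated cells of the same kind (Ctrl). Each side had 3 RNA sequencing libraries, 6 of the 12 in the series, chosen by their labelled treatment, and the comparison ran across all genes of the count table. The cells were mouse bone marrow-derived mesenchymal stem cells (BMSCs), grown in MEM with 10% fetal bovine serum and antibiotics, plated 1 day before treatment and harvested for total RNA. The other 6 libraries, 3 with CytoD alone and 3 with CK666 alone, served to show where the combination differed from a single compound. The sources used here give neither the strain, sex and age of the mice nor the dose of either compound, and the Ctrl label reads no treatment, with no mention of a solvent. It is not said whether a replicate is an animal, an isolation or a well. The p-values therefore reflect the scatter among these particular libraries, which may be technical only.

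Actin filaments grow at their barbed ends, and cytochalasin D caps those ends and stops growth. The Arp2/3 complex starts new branches from the sides of existing filaments, and CK666 is a small molecule that holds this complex in its inactive form. The pool of unpolymerised actin is read by the coactivators MRTF-A and MRTF-B (Mkl1 and Mkl2), which bind actin monomers and, when free of them, drive serum response factor (SRF) at CArG boxes in genes of the contractile apparatus. Tension on filaments also acts on the coactivators YAP and TAZ, which work through TEAD factors. Marrow stromal cells can become bone, cartilage or fat cells, and a rounded shape with low tension is known to favour fat over bone.

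The 8 stretches of promoter given here show the SRF motif in genes described below. They are the members of the SRF and MRTF target list with a CArG box in the 250 bases before a start site, and Myl9 from the contractile list, with the box in capitals. Sequences are those of RefSeq for GRCm38.p6, written 5′ to 3′ on the strand of the gene.
Srf (chr17:46556195-46556264, minus strand): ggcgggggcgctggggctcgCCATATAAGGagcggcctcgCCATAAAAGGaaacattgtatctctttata
Vcl (chr14:20929151-20929200, plus strand): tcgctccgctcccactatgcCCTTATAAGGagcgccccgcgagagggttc
Actg1 (chr11:120348556-120348605, minus strand): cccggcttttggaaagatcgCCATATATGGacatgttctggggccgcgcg
Cnn2 (chr10:79988524-79988573, plus strand): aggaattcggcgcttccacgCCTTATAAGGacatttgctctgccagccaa
Filip1l (chr16:57549160-57549209, plus strand): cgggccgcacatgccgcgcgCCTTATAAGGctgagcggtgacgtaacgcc
Fhl1 (chrX:56779561-56779610, plus strand): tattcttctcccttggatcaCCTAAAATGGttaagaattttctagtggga
Fhl2 (chr1:43163963-43164012, minus strand): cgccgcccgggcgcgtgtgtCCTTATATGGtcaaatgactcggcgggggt
Myl9 (chr2:156775283-156775332, plus strand): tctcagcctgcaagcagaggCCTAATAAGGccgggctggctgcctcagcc
In the SRF and MRTF target list, 7 of 16 genes with a promoter in the RefSeq table held the box in such a window (43.8%), against 1.5% of 10640 tested genes. Among contractile smooth muscle genes 1 of 13 held it. All 8 genes shown fell with the combination. Srf itself, which carries a pair of boxes, measured 99.2, 108 and 106 CPM (counts scaled to a common library size, after TMM) in Ctrl replicates 1 to 3 and 59.2, 62.2 and 59.1 CPM with the combination, a log2 change of -0.79 ± 0.13 (SE, adjusted p = 0.000301). The smallest and largest changes among the 8 were that of Srf and that of Fhl1 (-2.58 ± 0.11).

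A second set carries the cell cycle homology region, TTTGAA, a short element near the start of many genes of the G2 and M phases. Shown are members of the mitosis list with this motif, in capitals on either strand, so TTCAAA is the same motif read on the opposite strand.
Cdk1 (chr10:69352913-69353003, minus strand): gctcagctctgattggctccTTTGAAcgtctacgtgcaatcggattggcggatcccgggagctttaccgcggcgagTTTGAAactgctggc
Cdc20 (chr4:118437344-118437381, minus strand): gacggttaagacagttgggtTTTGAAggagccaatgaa
Prc1 (chr7:80294426-80294471, plus strand): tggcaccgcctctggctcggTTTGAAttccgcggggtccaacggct
Ube2c (chr2:164769880-164769925, plus strand): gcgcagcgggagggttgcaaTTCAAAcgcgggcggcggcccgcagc
Kif11 (chr19:37376343-37376381, plus strand): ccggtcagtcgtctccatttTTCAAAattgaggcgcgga
Mki67 (chr7:135716452-135716515, minus strand): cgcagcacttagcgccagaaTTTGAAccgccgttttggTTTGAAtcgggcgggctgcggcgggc
Of 22 mitosis genes with a promoter in the table, 8 held TTTGAA (36.4%, against 12.7% of tested genes) and 17 held CCAAT (77.3%, against 40.7%). The CCAAT share was also higher in replication (68%), SRF and MRTF (56.2%) and contractile genes (53.8%). It was lower in adipocyte (38.9%), YAP and TAZ (31.2%) and respiratory chain genes (30.4%). Ccnb2 and Top2a also held TTTGAA. In the DNA replication list, 4 of 25 genes held the E2F site TTTCGCGC (16%, against 0.592% of tested genes), shown here in capitals with GCGCGAAA as its opposite strand.
Mcm5 (chr8:75109336-75109383, plus strand): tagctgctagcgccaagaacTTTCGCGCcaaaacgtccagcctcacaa
Mcm6 (chr1:128359784-128359831, minus strand): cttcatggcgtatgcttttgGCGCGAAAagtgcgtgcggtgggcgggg
Orc1 (chr4:108579407-108579453, plus strand): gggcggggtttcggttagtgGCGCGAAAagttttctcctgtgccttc
Rfc3 (chr5:151651209-151651238, minus strand): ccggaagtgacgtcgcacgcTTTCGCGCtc
The TEAD site GGAATG was found in 6 of 16 YAP and TAZ target genes (37.5%, against 12.8%) and in 7 of 13 contractile genes (53.8%). Among all called genes at least 2-fold lower, 3.81% held a CArG box, and among those at least 2-fold higher 1.93%. The GC box GGGCGG, searched as a common motif, was held by 63.1% of tested genes. Its share was 77.3% in mitosis, 72% in replication, 81.2% in YAP and TAZ, 68.8% in SRF and MRTF and 69.2% in contractile genes. In adipocyte and respiratory chain genes it was 38.9% and 39.1%. Both strands were searched, motifs may overlap, and a match is a description of letters, not of binding. Lists named for a factor hold mainly its known targets, so these shares are not independent of the choice of list.

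The sum of gene counts was 49657966 to 56565900 in Ctrl and 53682156 to 69269716 in the combination. No 2 libraries of a group were so alike as to be one library (chi-square per degree of freedom of 11.36 or more). Combination replicate 1 differed from replicates 2 and 3 by 0.131 and 0.141 (log2, median over genes), and those differed by 0.0893 from each other. On the first principal component it scored 28.7 and they 44.4 and 44.0, with Ctrl from -58.2 to -52.9. Among libraries used only for reference, CK666 replicate 3 differed from its group by 0.289 and 0.276, where the other pair differed by 0.126, and its difference rose with gene length (r of 0.377 and 0.465 across genes). The share of the authors' library total that lay outside gene rows was 10.9% to 11.5% in Ctrl and 13.0% to 13.9% in the combination, and its part in the results was not tested. Of the macrophage markers, 7 of 12 passed the filter on low counts. Together the 12 reached 10.4 to 11.3 CPM in Ctrl against 8.69 to 9.58 CPM in the combination, and Ptprc, Emr1, Tyrobp and Laptm5 were at 0 in both groups. Endothelial markers summed to 1.59 to 2.45 CPM and 3.25 to 4.14 CPM, with Emcn, Erg and Tie1 at 0 in both, and Vwf made up most of the difference (0.896, 1.61 and 1.65 against 3.66, 3.10 and 2.79 CPM). Erythroid and lymphoid markers summed to 6.15 to 6.47 CPM and 7.80 to 8.72 CPM, and skeletal muscle and neural markers to 6.76 to 7.19 CPM and 6.62 to 7.13 CPM. The part of these other cell types in the results was not tested. Stromal markers summed to 3598 to 3798 CPM in Ctrl against 2285 to 2430 CPM in the combination. Most are surface proteins, but the list also holds the transcription factors Prrx1, Twist1 and Twist2. Thy1 was near 0 in both groups (0 to 0.0751 against 0 to 0.0353 CPM). The sum rests on a few abundant members. Itgb1 (1568 to 1586 against 843 to 901 CPM), Pdgfrb (692 to 726 against 315 to 379 CPM) and Prrx1 (706 to 775 against 515 to 563 CPM) fell. Of 14 tested, 3 were called higher, 5 lower and 6 neither, with a median log2 change of -0.09. In bulk RNA, fewer cells of a type and less RNA per cell cannot be told apart.

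The combination raised and lowered similar numbers of genes. Of 13534 genes tested with edgeR's quasi-likelihood test, 6225 were called at an adjusted p under 0.05 (46.0%), 3303 higher (24.4%) and 2922 lower (21.6%). Changes of at least 2-fold were found in 779 genes that rose and 946 that fell, and of at least 8-fold in 147 and 55. The median log2 change of all tested genes was 0.04. The 3 combination libraries lay all above or all below the 3 Ctrl libraries in 8586 genes (63.4%). The share of called genes that were higher was 53.1%, and 48.6% when libraries were scaled by RLE, so which direction held more genes depended on the scaling.

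**Figure D1:**
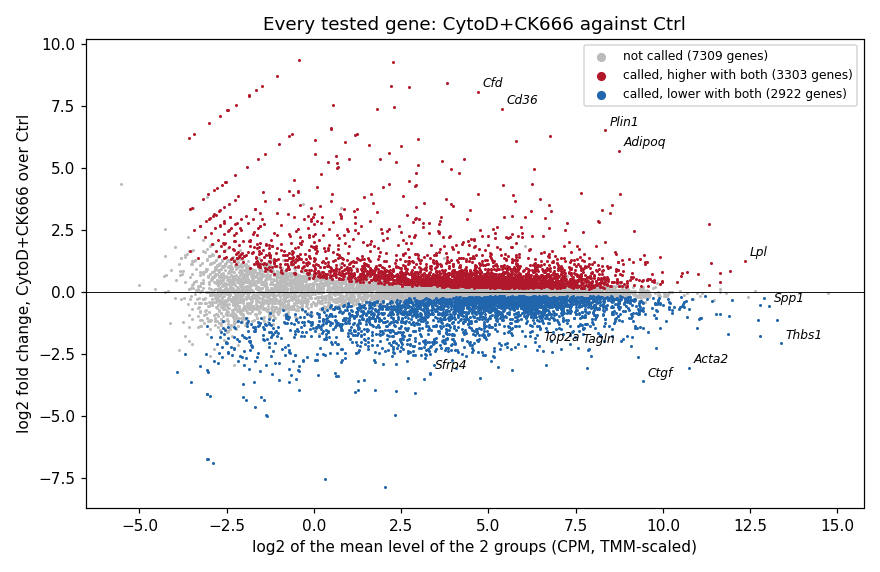
Log2 fold change of CytoD+CK666 over Ctrl (vertical axis) against the log2 of the mean level of the 2 groups in CPM (horizontal axis), 1 point per tested gene, with called genes in red (3303 higher) and blue (2922 lower). Fat cell genes such as Plin1 and Cd36 lie far above 0 and the actin and matrix genes Acta2, Ctgf and Thbs1 below it.

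Genes known from fat cells were among those raised most. Cfd, the serum protease adipsin secreted by fat cells, measured 0.204, 0.211 and 0.15 CPM in Ctrl against 40.3, 59.4 and 54.8 CPM in the combination, 272-fold higher (log2 8.09 ± 0.42, adjusted p = 1.91e-08). Cd36, a fatty acid transporter, rose from 0.489, 0.423 and 0.564 to 60.2, 90.8 and 98.3 CPM, 168-fold. Plin1, the perilipin that coats lipid droplets, went from 7.61, 6.09 and 7.21 to 524, 738 and 673 CPM, 92.4-fold. Groups that do not overlap were a condition for naming the most raised genes. In Cfd, Cd36 and Plin1, combination replicate 1 had the lowest of the treated values. Lipe, the hormone-sensitive lipase, rose 77.5-fold (2.33 to 3.08 against 171 to 252 CPM). The remaining genes of the 10 most raised were Adig, a protein of fat cell differentiation, Ffar2, a receptor for short-chain fatty acids, Sptlc3, a subunit of serine palmitoyltransferase, Tshr, the thyrotropin receptor, B3galt2, a galactosyltransferase, and A530016L24Rik. Their Ctrl values were near the floor of 3 counts (0.0564 to 0.0634 CPM), so no fold is given. In the combination Adig measured 6.66, 11.1 and 10.1 CPM, Tshr 4.62, 13.1 and 11.1 CPM, Sptlc3 4.25, 8.52 and 8.22 CPM and A530016L24Rik 17.9, 34.1 and 32.8 CPM.

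Across the adipocyte list, 25 of 28 tested genes rose and 3 fell, with a median log2 change of 2.47. The 25 stayed at that number in every alternative run, while the number called lower was 1 without Ctrl replicate 2 and 2 without Ctrl replicate 1 or without combination replicate 2 or 3. Pparg, the nuclear receptor that directs fat cell formation, measured 144, 133 and 131 CPM in Ctrl against 251, 282 and 275 CPM in the combination (1.98-fold, log2 0.98 ± 0.08, adjusted p = 4.03e-07). Cebpa, its partner factor, rose 2.32-fold (406 to 452 against 919 to 1070 CPM). Adipoq, the hormone adiponectin, went from 17.7, 15.4 and 15.6 to 654, 940 and 915 CPM, 51.6-fold, and Fabp4, a fatty acid carrier, from 60.9, 55.7 and 63.9 to 539, 774 and 748 CPM, 11.4-fold. Lpl, the lipoprotein lipase, was abundant already in Ctrl (3476, 2886 and 2923 CPM) and reached 6488, 7750 and 8033 CPM, 2.40-fold. The 3 members that fell were Cebpb and Cebpd, factors of the early steps of fat cell formation, and Acly, which supplies acetyl-CoA for lipid synthesis, at log2 changes of -0.52, -0.50 and -0.24.

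Mitochondrial and fatty acid oxidation genes rose as well. All 32 nuclear-encoded respiratory chain genes tested were called higher, at a median log2 change of 0.61 and between 0.34 and 1.00, where 24.4% of all tested genes were called higher. Cycs, cytochrome c, measured 78.1, 75.1 and 83.2 CPM in Ctrl against 137, 172 and 163 CPM in the combination, a log2 change of 1.00 ± 0.14 (adjusted p = 8.62e-05). Cox8a, a subunit of cytochrome c oxidase, rose 1.97-fold (223 to 242 against 401 to 494 CPM), Atp5o of the ATP synthase 1.98-fold and Cyc1 of complex III 1.96-fold. Of 25 fatty acid oxidation and peroxisome genes, 22 rose and none fell (median 0.63). Cat, the peroxisomal catalase, rose 2.38-fold (125 to 132 against 265 to 322 CPM) and Cpt2, the inner-membrane carnitine palmitoyltransferase, 2.05-fold. Cpt1b, Slc25a20 and Pdk4 were not called.

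**Figure D2:**
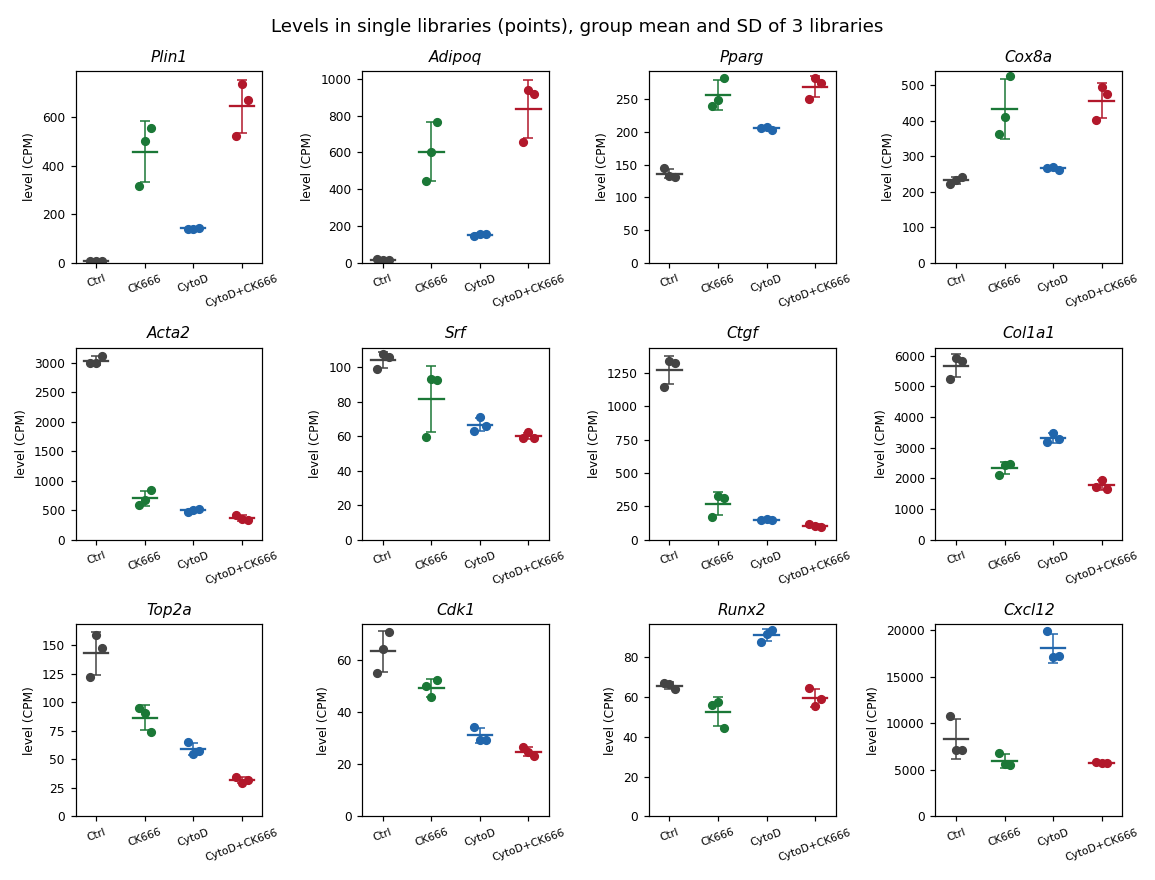
Level in CPM (vertical axis, from 0) of 12 genes in single libraries of the 4 groups (points, 3 per group), with the group mean as a horizontal line and the SD as an error bar. Plin1 and Adipoq are near 0 in Ctrl and highest in CytoD+CK666, Acta2 and Ctgf show the reverse, and Runx2 in the combination overlaps Ctrl.

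Contractile and SRF-driven genes fell. Of 16 contractile smooth muscle genes 13 fell and none rose (median log2 change -1.68), where 21.6% of all tested genes fell. Acta2, smooth muscle actin, measured 3005, 2999 and 3122 CPM in Ctrl against 419, 351 and 330 CPM in the combination, 8.29-fold lower (log2 -3.05 ± 0.12, adjusted p = 4.63e-09). Tagln, an actin-binding protein also called SM22, went from 304, 319 and 320 to 71.1, 68.2 and 59.8 CPM, 4.73-fold lower. Lmod1, which nucleates actin filaments in smooth muscle, fell 7.65-fold, Actg2, the gamma actin of smooth muscle, 5.99-fold, and Myl9, a regulatory myosin light chain, 4.90-fold. Groups that do not overlap were a condition for naming list members, so their separation is no added support. Acta1, skeletal muscle actin, fell from 7.90, 10.8 and 10.1 to 0.222, 0.254 and 0.459 CPM, 30.8-fold. Myh11, Des and Synpo2 were not called.

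Of 20 genes in the SRF and MRTF target list 19 fell and none rose (median -1.12), and Mkl2 alone was not called. The list also holds Mkl1, counted among those that fell, and Mkl2, which are the MRTF coactivators themselves. Actb, the main cytoplasmic actin, went from 3066, 2671 and 2897 to 1417, 1331 and 1283 CPM, 2.14-fold lower, and Actg1 1.85-fold lower. Zyx, the focal adhesion protein zyxin, fell 3.11-fold, Fhl2, a LIM domain coactivator, 3.40-fold, and Vcl, vinculin, 2.07-fold. Fos, an immediate early gene, was spread in Ctrl (5.17, 18.2 and 13.3 CPM) and lower in all 3 treated libraries (1.92 to 2.44 CPM). YAP and TAZ target genes fell in 16 of 22 cases and rose in 3 (median -0.55; 1 rose where at least 1 CPM in 3 libraries was required). Ctgf, a matricellular growth factor, measured 1147, 1338 and 1323 CPM in Ctrl against 118, 98.9 and 95.7 CPM in the combination, 12.2-fold lower (log2 -3.61 ± 0.20, adjusted p = 3.06e-08), and Cyr61 of the same protein family fell 3.93-fold. The 3 that rose were Nt5e (1.92 on the log2 scale, at 0.0846 to 0.813 CPM in all), Ptpn14 (0.59) and Rbms3 (0.39).

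Genes of the actin assembly machinery had list medians nearer 0. In the list of the Arp2/3 complex and its activators, 9 of 21 fell and 1 rose (median -0.25; 2 rose without Ctrl replicate 3 or CK666 replicate 3, with a length correction or with only the 2 groups in the fit). Actr3, the Arp3 subunit, went from 631, 592 and 590 to 405, 334 and 340 CPM, 1.68-fold lower, and Arpc2 1.40-fold lower. Actr2, the Arp2 subunit, measured 331, 311 and 310 against 296, 261 and 279 CPM (log2 -0.19 ± 0.08, adjusted p = 0.0879), and it was called lower under RLE scaling (adjusted p = 0.046) and in several other settings. With only the 2 groups in the fit, 14 of the list were called lower. Wasf1, a WAVE family activator, was the member that rose, 2.59-fold (9.51 to 12.4 against 26.7 to 28.8 CPM). Among formins and actin turnover genes, 16 of 27 fell and 2 rose (4 without CK666 replicate 3 or with only the 2 groups). Diap3, a formin, fell 5.39-fold and Fmn1 2.18-fold, and the monomer-binding thymosins Tmsb4x and Tmsb10 fell 2.55-fold and 2.12-fold. Of 30 integrins and focal adhesion genes 21 fell and 3 rose (median -0.72). Itga11, a collagen-binding integrin chain, dropped from 84.7, 97.4 and 92.3 to 10.3, 10.7 and 9.85 CPM, 8.91-fold. Itga6, a laminin-binding chain, rose 5.26-fold (10.2 to 13.2 against 48.4 to 68.1 CPM), and Itga1 4.26-fold, to 19.7 CPM in combination replicate 1 and 49.0 and 48.3 CPM in the others. In the caveolae list Sdpr (cavin-2) rose 2.90-fold and Cav2 2.61-fold while Cav1 was not called.

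Matrix genes fell in the main, and collagen VI genes rose. Of 22 fibrillar collagens and matrix glycoproteins 17 fell and 4 rose (median -1.12). Thbs1, thrombospondin 1, one of the most abundant transcripts, measured 15690, 18560 and 17830 CPM in Ctrl against 4588, 3891 and 3927 CPM in the combination, 4.20-fold lower (log2 -2.07 ± 0.17, adjusted p = 5.69e-07). Col1a1, the main collagen I chain, went from 5248, 5941 and 5833 to 1725, 1954 and 1648 CPM, 3.20-fold lower. Col3a1 fell 4.54-fold, Fbln2 4.76-fold and Fbn1, fibrillin 1, 3.74-fold. Col6a1 rose 1.80-fold, from 2941, 2611 and 2748 to 4745, 5314 and 4851 CPM, and Col6a2, Col6a3 and Col5a3 rose by 1.16, 0.77 and 1.17 on the log2 scale. Among collagen folding and crosslinking enzymes 16 of 20 fell and 1, Plod2, rose (median -0.70), with P4ha3, a prolyl hydroxylase chain, 4.04-fold and Loxl4 3.80-fold lower. Basement membrane genes were mixed, 3 higher (5 with the replicate block) and 8 lower of 21: Col15a1 rose 15.1-fold, from 6.80, 5.75 and 6.69 to 93.3, 99.8 and 97.2 CPM, and Lama1, a laminin chain, had a log2 change of -1.59. Matrix proteases and their inhibitors, 24 tested, had 12 members that fell and 6 that rose. Over all tested genes 21.6% were called lower and 24.4% higher. Adamts1, Plau (urokinase) and Adamts5 fell 5.40-fold, 5.02-fold and 3.99-fold. Adamts15 rose 12.1-fold (0.488 to 0.508 against 5.21 to 6.39 CPM), and Mmp13, collagenase 3, 1.60-fold (7.57 to 9.81 against 11.7 to 15.1 CPM).

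**Figure D3:**
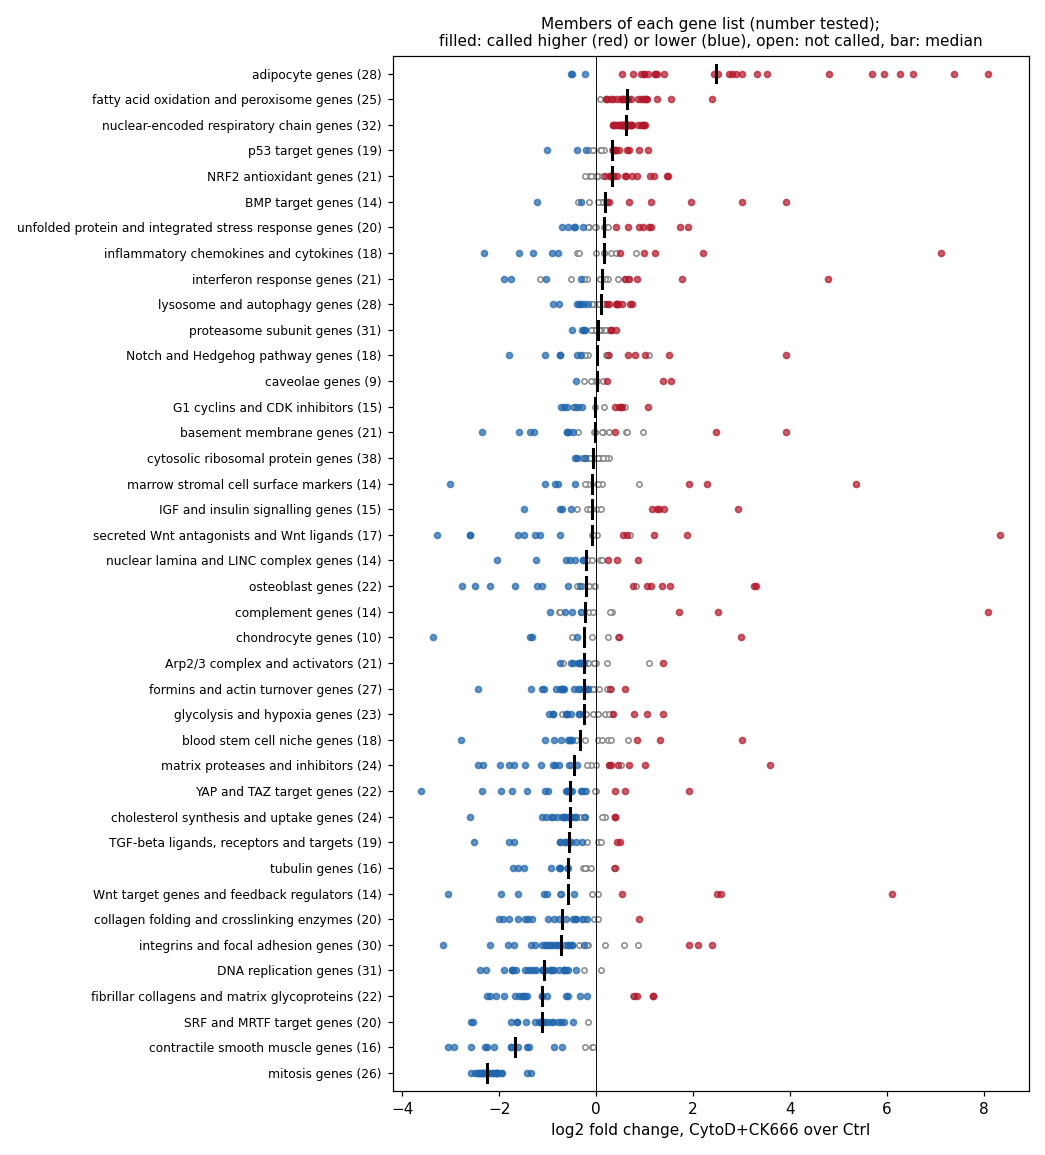
Log2 fold change of CytoD+CK666 over Ctrl (horizontal axis) for the tested members of 40 gene lists (rows, number tested in brackets), ordered by their median (black bar), with called genes filled in red or blue and other genes open. Mitosis genes lie lowest (26 of 26 lower), adipocyte genes highest (25 of 28 higher), and the 32 respiratory chain genes form a narrow band above 0.

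Cell division genes fell in nearly every listed case. All 26 mitosis genes were called lower, at a median log2 change of -2.25 and between -2.59 and -1.35. Ccna2, cyclin A2, measured 48.9, 67.4 and 63.9 CPM in Ctrl against a mean of 9.98 CPM in the combination, 6.02-fold lower (log2 -2.59 ± 0.12, adjusted p = 9.78e-09). Plk1, a mitotic kinase, fell 5.70-fold, Ndc80 and Nuf2 of the kinetochore 5.47-fold and 5.38-fold, and Mki67, the Ki-67 antigen, 4.67-fold (70.8 to 106 against 17.9 to 21.7 CPM). Top2a, topoisomerase II alpha, went from 122, 159 and 148 to 34.1, 29.6 and 32.2 CPM, and Cdk1, the mitotic kinase bound by cyclin B, from 54.9, 64.1 and 70.6 to 26.5, 24.5 and 23.1 CPM. In Ccna2, Mki67, Top2a and Cdk1, Ctrl replicate 1 was the lowest Ctrl library. Of 31 DNA replication genes 29 fell and none rose (median -1.08). Cdc6, which loads the replicative helicase, fell 5.24-fold, and Mcm5, a subunit of that helicase, 4.85-fold (58.3 to 70.2 against 12.5 to 14.6 CPM). For the lists that follow, the shares over all tested genes were 24.4% called higher and 21.6% called lower. Among G1 cyclins and CDK inhibitors 5 rose and 6 fell of 15. Cdkn1a, the inhibitor p21, rose 2.09-fold (208 to 223 against 400 to 493 CPM), and Ccnd1, Cdkn2a and Rbl1 fell 1.65-fold, 1.59-fold and 1.52-fold. Of 19 p53 target genes 9 rose and 3 fell, with Sesn2 1.84-fold and Phlda3 1.61-fold higher. In the tubulin list 8 of 16 members fell and in the nuclear lamina list 7 of 14. Among these members were Stmn1 (3.07-fold), which destabilises microtubules and is not itself a tubulin, and Tmpo (2.37-fold).

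**Figure D4:**
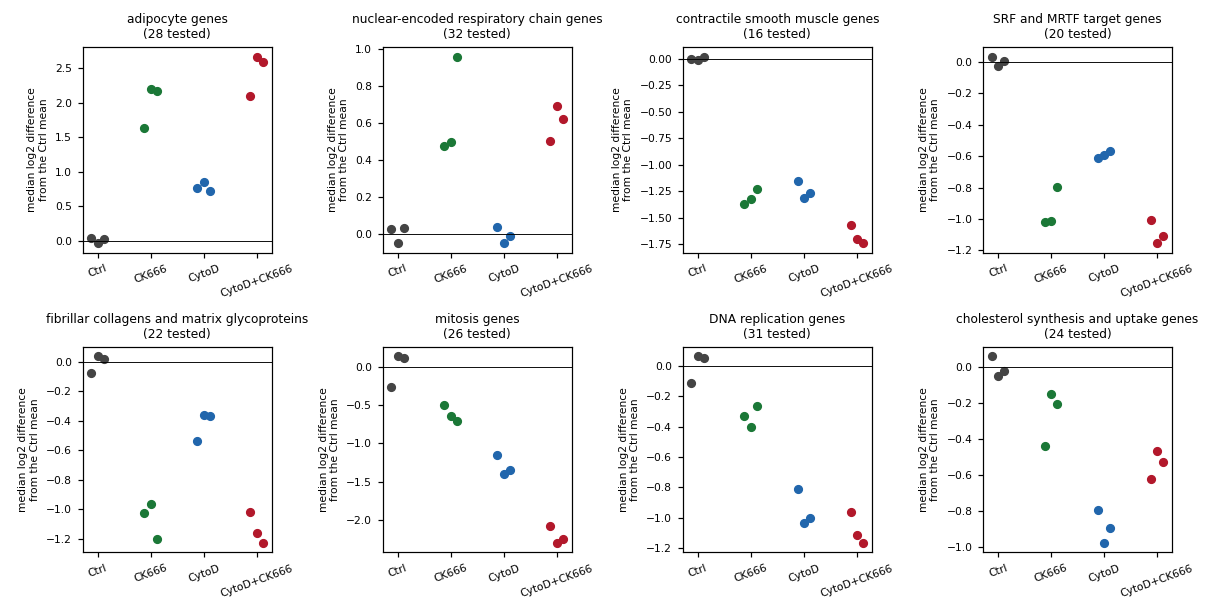
Median log2 difference from the Ctrl mean (vertical axis) over the tested members of 8 gene lists, in each of the 12 libraries grouped by treatment (points). In the mitosis list the combination libraries lie lowest, between -2.31 and -2.08, and in the respiratory chain list CytoD libraries lie with Ctrl while combination libraries lie between 0.50 and 0.69.

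Bone genes were called in both directions, where 24.4% of all tested genes were called higher and 21.6% lower. Of 22 osteoblast genes 7 rose, 8 fell and 7 were not called (median log2 change -0.22, and -0.37 with only the 2 groups in the fit). Runx2, the master factor of bone formation, measured 66.9, 66.3 and 63.8 CPM in Ctrl against 64.2, 55.3 and 58.7 CPM in the combination (log2 -0.14 ± 0.09, adjusted p = 0.222); it was called lower with only the 2 groups in the fit (adjusted p = 0.0287) and without CK666 replicate 3 (adjusted p = 0.0206). Sp7, osterix, was low in both groups (0.0814, 0.634 and 1.13 against 0.444, 0.846 and 0.494 CPM, adjusted p = 0.967). Alpl, alkaline phosphatase, rose 2.87-fold, from 2.61, 4.27 and 4.70 to 7.14, 14.1 and 11.9 CPM. Bglap (osteocalcin) and Ibsp passed the test upwards at no more than 0.444 and 0.353 CPM in any of these libraries, with Ctrl values under the floor. Spp1, osteopontin, measured 9963, 10220 and 10330 CPM in Ctrl against 9592, 5357 and 5509 CPM in the combination (adjusted p = 0.0178); replicate 1 of the combination lay near Ctrl, and the call was lost without combination replicate 2 or 3 (adjusted p = 0.084 and 0.083). Mgp, an inhibitor of mineralisation, had the same pattern, at 2617 to 3181 against 2188, 1022 and 960 CPM. Smpd3, a sphingomyelinase needed for mineralisation, fell 5.66-fold. Of 10 chondrocyte genes 4 fell, with Col2a1 2.56-fold and Matn3 10.3-fold lower. A further 2 were called higher, but no fit that left out a Ctrl or combination library kept both (1 without Ctrl replicate 2 or combination replicate 1, 0 without any of the others).

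Niche and signalling genes were called in both directions. The counts below stand beside 24.4% of all tested genes called higher and 21.6% called lower. Cxcl12, the chemokine that holds blood stem cells in marrow, measured 10780, 7115 and 7094 CPM in Ctrl against 5848, 5707 and 5683 CPM in the combination, 1.45-fold lower (adjusted p = 0.00861), with Ctrl replicate 1 above the other Ctrl libraries. Kitl, stem cell factor, rose 2.48-fold (233 to 304 against 606 to 699 CPM) and Bmp4 fell 6.90-fold (56.8 to 62.7 against 8.12 to 9.51 CPM). Of 18 niche genes 3 rose and 8 fell. Ly6a, the Sca-1 antigen of mouse stromal cells, fell 8.15-fold, from 64.6, 68.9 and 73.8 to 11.9, 6.91 and 6.71 CPM, while Mcam (CD146) rose 40.8-fold, from 0.774, 1.18 and 0.864 to 28.5, 44.0 and 42.4 CPM. Of 17 secreted Wnt antagonists and Wnt ligands 5 rose and 8 fell. Among the antagonists, Sfrp1 fell 6.08-fold (1039 to 1094 against 167 to 188 CPM), Sfrp2 6.07-fold and Sfrp4 9.71-fold. Sfrp5, at 0 in every Ctrl library, reached 0.407, 1.10 and 0.635 CPM. Among Wnt target genes 4 rose and 7 fell of 14, with Axin2, a feedback inhibitor, at 0.489 to 1.06 CPM in Ctrl against 3.22 to 4.23 CPM in the combination, and Lgr5, a receptor for R-spondins, 8.29-fold lower. BMP target genes rose in 7 of 14 cases and fell in 2 (1 without Ctrl replicate 3 or without combination replicate 2 or 3), with Id4 3.87-fold higher and Hey1 at no more than 0.169 CPM in Ctrl against 0.998, 1.13 and 1.59 CPM in the combination. In the TGF-beta list 12 of 19 fell and 2 rose, the latter only 1 without any single Ctrl or combination library and under RLE scaling. Those that fell included Inhba, an activin chain (5.78-fold), and Tgfb3 (3.26-fold). Of 18 Notch and Hedgehog genes 6 rose and 6 fell: Notch1 rose 2.84-fold and Notch4 fell 3.46-fold. Of 15 IGF and insulin genes 5 rose and 4 fell, with Irs2, an insulin receptor substrate, 2.62-fold higher and Igf2 2.80-fold lower.

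Most cholesterol genes fell, antioxidant genes were called mainly higher, and glycolysis genes were called in both directions. Over all tested genes 24.4% were called higher and 21.6% lower. Of 24 cholesterol synthesis and uptake genes 17 fell and 2 rose (median -0.55). Cyp51, an enzyme of late sterol synthesis, fell 2.05-fold (247 to 295 against 121 to 136 CPM). Dhcr7 and Insig1 were the members called higher, each by 0.39 on the log2 scale. None was called higher without Ctrl replicate 2 or 3 or without combination replicate 2 or 3, and 1 without Ctrl replicate 1. Of 23 glycolysis and hypoxia genes 9 fell, 4 rose and 10 were not called (median -0.26, and -0.09 without Ctrl replicate 2): Ldha, lactate dehydrogenase A, went from 782, 817 and 841 to 484, 420 and 403 CPM, 1.87-fold lower, and Hk2, a hexokinase, rose 2.60-fold. Of 21 NRF2 antioxidant genes 14 rose and none fell (median 0.32). Without combination replicate 1 there were 10 higher and 2 lower, and with the replicate block 1 was lower. Those that rose included Mgst1, a microsomal glutathione transferase (2.78-fold), and Slc7a11, the cystine importer (2.74-fold). Stress response genes moved in both directions, 8 higher and 5 lower of 20. Trib3, Atf3 and Ddit3 (CHOP) of the integrated stress response rose 3.73-fold, 3.31-fold and 2.19-fold, while the chaperones Hsp90b1, Calr and Pdia6 fell by 0.43, 0.46 and 0.70 on the log2 scale. Of 28 lysosome and autophagy genes 9 rose and 7 fell, shares not far from those of all tested genes, with the proteases Ctsb 1.66-fold higher and Ctsl 1.70-fold lower. Among ribosomal protein genes few were called, 3 of 38 lower and none higher (median -0.07). With only the 2 groups in the fit, or without CK666 replicate 3, 13 were called lower, and with a length correction 23. Of 31 proteasome genes 3 were called higher and 4 lower. The number higher was 1 without Ctrl replicate 1, 7 without CK666 replicate 3 or with only the 2 groups, and 5 with the length correction. The number lower was 2 without Ctrl replicate 2 and 1 without Ctrl replicate 3 or combination replicate 2 or 3.

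Immune genes were called about as often as all tested genes, of which 24.4% were higher and 21.6% lower. Of 21 interferon response genes 5 rose and 4 fell, with Gbp3 3.41-fold higher (0.211 to 0.448 against 0.887 to 1.20 CPM) and Ifit2 3.74-fold lower (47.7 to 48.7 against 10.9 to 16.5 CPM). Of 18 chemokine and cytokine genes 5 rose (3 with halved counts or where at least 1 CPM in 3 libraries was required) and 5 fell. Il1rn, the interleukin 1 receptor antagonist, fell from 405, 373 and 374 to 98.8, 65.3 and 66.1 CPM, 5.01-fold, and Cx3cl1 3.04-fold. Cxcl10 was at 0 in every Ctrl library and at 0.259, 0.451 and 0.212 CPM in the combination. Complement genes, which include Cfd, rose in 3 of 14 cases and fell in 4. C3, the central complement protein, rose 5.70-fold (7.65 to 8.27 against 33.2 to 54.8 CPM). Further genes among the 10 most lowered were Ly6d, Dio3, an enzyme that inactivates thyroid hormone, Edn1, endothelin 1, Mcpt8, Il1rl1, Lmcd1 and Ly6c1, between 9.85-fold and 17.1-fold lower. Among abundant transcripts Vim, the filament protein vimentin, went from 4881 to 5223 CPM in Ctrl to 2277 to 2980 CPM, 1.96-fold lower, and B2m, the light chain of class I molecules, rose 1.74-fold, from 688 to 778 to 1202 to 1399 CPM. B2m shares its place with the row of Patl2, Tagln with Pcsk7, Runx2 with Supt3h, Cxcl10 with Art3, Bmp4 with Gm15217, Ctsb with Fdft1 and Ccna2 with Exosc9, and whether counting used strand is not given, so reads of these pairs may be shared.

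Fewer genes separated the combination from CK666 alone than from CytoD alone. Against CytoD alone 2134 genes were higher (15.8%) and 1933 lower (14.3%), and against CK666 alone 599 were higher (4.43%) and 971 lower (7.17%); both contrasts use the same combination libraries and no test compared the counts. Without CK666 replicate 3 the genes higher than with CK666 alone numbered 979. Every one of the 32 respiratory chain genes was higher than with CytoD alone and none was called against CK666 alone (5 were higher without CK666 replicate 3). Adipocyte genes were higher than with CytoD alone in 22 of 28 cases and lower in 1. Against CK666 alone 3 were higher, and 9 without CK666 replicate 3 or without combination replicate 1. Adipoq averaged 603 CPM with CK666, 153 CPM with CytoD and 836 CPM with both. For Fabp4 these means were 381, 91.8 and 687 CPM, and the difference from CK666 alone passed the test (log2 0.85, adjusted p = 0.00847). Pparg was at 256, 206 and 269 CPM, with a difference from CK666 alone of 0.07 (adjusted p = 0.562).

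In the mitosis list the combination lay below either compound. All 26 were lower than with CytoD alone (median log2 difference -0.95) and all 26 lower than with CK666 alone (median -1.58), also without CK666 replicate 3. Top2a averaged 143 CPM in Ctrl, 86.6 CPM with CK666, 58.9 CPM with CytoD and 32.0 CPM with both. Replication genes were lower than with CK666 alone in 25 of 31 cases and lower than with CytoD alone in 9. Over all genes 180 were above Ctrl and each single compound and 367 below all 3 groups. Slc7a11 was higher with both than in each other group, at 1.93 CPM in Ctrl, 1.23 CPM with CK666, 1.80 CPM with CytoD and 6.88, 4.85 and 4.13 CPM with both (adjusted p = 0.000374 against CytoD and 0.000138 against CK666). Mcam averaged 12.8 CPM with CK666, 1.73 CPM with CytoD and 38.3 CPM with both. On the other side Il1rn averaged 212, 317 and 76.7 CPM, Slc1a6, a glutamate transporter, 2.63, 2.93 and 0.938 CPM, and Aspm, a spindle protein, 19.0, 16.1 and 6.92 CPM. Dio3 fell to 1.43 CPM with both from 16.3 CPM in Ctrl, with 16.4 CPM under CytoD and 3.35 CPM under CK666.

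In 29 genes with a mean of at least 5 CPM the combination lay above one compound and below the other, both differences called, with an adjusted p over 0.5 against Ctrl. Gpi1, glucose-6-phosphate isomerase, averaged 388 CPM in Ctrl, 386 CPM with both, 248 CPM with CytoD and 501 CPM with CK666. Stc1, stanniocalcin 1, was at 7.23 and 6.55 CPM, against 32.7 CPM with CytoD and 2.91 CPM with CK666, and Pi15 at 5.39 and 5.90 CPM, against 33.0 and 2.47 CPM. Cxcl12 averaged 5956 CPM with CK666, 18052 CPM with CytoD and 5746 CPM with both.

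The change with both compounds was compared with the sum of the 2 single changes on the log2 scale, a contrast that uses the Ctrl libraries in every term. A departure was called in 1935 genes (14.3%). Adipocyte genes had 14 negative departures of 28 and 2 positive ones, contractile genes 12 positive of 16 and 1 negative, and cholesterol genes 15 positive departures of 24 and no negative one. Plin1 was raised by 6.53 on the log2 scale with both, against 4.34 with CytoD and 6.03 with CK666, a departure from their sum of -3.84 ± 0.26 (adjusted p = 9.41e-06). Acta2 had a log2 change of -3.05 with both and a departure of 1.68 ± 0.16 (adjusted p = 7.61e-05), so it fell by less than the sum. In the mitosis list 2 of 26 genes departed, both to the negative side (6 without CK666 replicate 3). No respiratory chain gene did, and without CK666 replicate 3 there were 7 on the positive side.

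**Figure D5:**
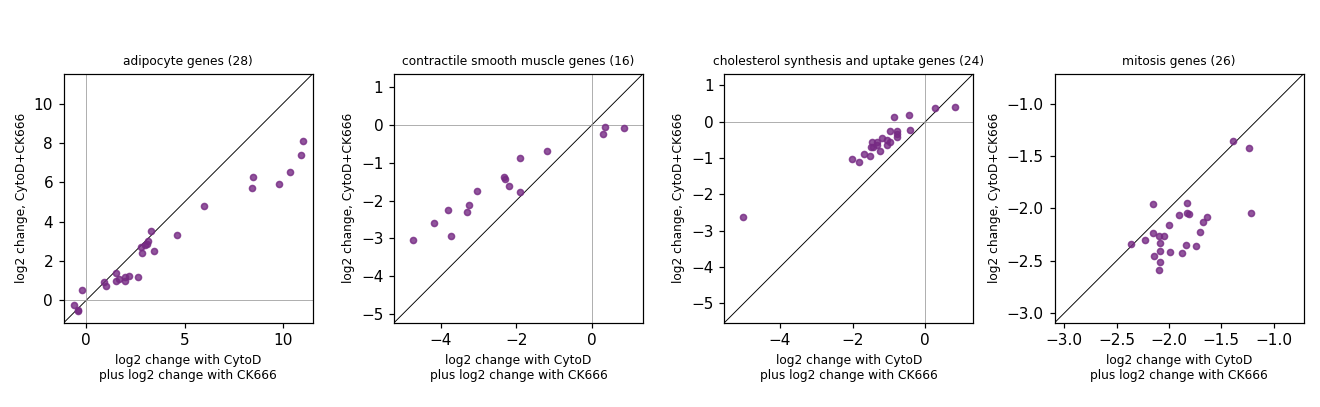
Log2 change with CytoD+CK666 (vertical axis) against the sum of the log2 changes with CytoD and with CK666 (horizontal axis), all against the same Ctrl libraries, for the tested members of 4 gene lists (points), with the diagonal marking equality. The adipocyte genes Plin1, Cd36, Cfd and Adipoq lie below the diagonal, and most contractile and cholesterol genes above it.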

How the data were processed

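Total RNA of 12 BMSC libraries was sequenced on an Illumina platform, 3 libraries in each of 4 groups. The deposited table, per the file headers, holds raw gene counts and RPKM values made by the authors for 23358 gene rows. The RPKM values of the authors are per kilobase of a deposited coding length and per library total. They served for the share of each library outside gene rows and to choose the abundant genes named. The submitters' processing notes list hg19, a human build, with HTSeq, TopHat and CASAVA 1.9, in no given order. The coordinates in the table fit mouse genes, since 99.9% of 12100 genes matched by symbol overlapped their RefSeq place in GRCm38.p6. All counts in the table were even (0 odd values), so each fragment may have been counted as a pair, and halved counts were tried.

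Genes were filtered with filterByExpr (minimum count 10, 13534 genes kept), scaled by TMM and tested with edgeR 4.0.16 (R 4.3.3, limma 3.58.1) by its quasi-likelihood test. The fit had all 4 groups and no covariate, with Benjamini-Hochberg adjustment over all tested genes and a threshold of 0.05. All adjusted p-values in the text come from it unless an alternative is named. A fold change is edgeR's log2 change on the linear scale, and its SE was obtained by dividing the size of the log2 change by the root of F. No pseudocount was added to CPM levels, and log2 CPM for the principal components had a prior count of 2. The common biological coefficient of variation was 0.115. On simulated data with 13043 genes for both compounds against Ctrl, the test recovered 58% of genes changed 1.5-fold and 100% of those changed 2-fold. There were 10 false calls. The simulation gave every gene the same spread. Only genes with higher Ctrl counts were changed, and only in the combination. These figures therefore do not carry over to genes of low count or uneven spread.

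Genes named in the text were the 10 most raised and 10 most lowered with non-overlapping groups and a mean of at least 5 CPM. Also named were up to 4 called members of each list with non-overlapping groups, and 27 fixed genes. Further ones were the most extreme genes against each compound alone, genes between them, and abundant genes. The promoter genes were named because they hold a motif. Other list members named to account for a count were chosen after their values were seen. The lists and genes were chosen with earlier results of these data known. Lists are described by counts and medians, with no test of a list. Some genes meeting these criteria are not reported here.

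Alternatives were RLE scaling, other filters, DESeq2 1.42.0, the 2 groups alone, a replicate block, each library left out, halved counts, no Rn45s and a length correction. Added after seeing the data were fits of both compounds against Ctrl without CK666 replicate 3, and list counts in the other contrasts without that library or combination replicate 1. Replicate numbers did not pair the libraries. Gene totals of 48930210 to 69269716 put the floor of 3 counts at 0.0423 to 0.0634 CPM, which covers counting error only.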

Additional observations from a re-analysis of the deposited data

Results flagged for a closer look

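Of 27 fixed genes, 15 departed from the sum of the single-compound changes on the log2 scale by the test of that difference (edgeR, adjusted p under 0.05), 9 to the negative side and 6 to the positive. A negative value means that the change with both compounds was more negative, or less positive, than the sum. Fat cell genes with a called departure were on the negative side, while Fabp4, also a fixed gene, had no called departure. The values were -3.84 for Plin1 (SE 0.26, adjusted p = 9.41e-06), -3.54 for Cd36 (SE 0.32, adjusted p = 5.61e-05), -2.93 for Cfd (SE 0.57, adjusted p = 0.00534) and -2.76 for Adipoq (SE 0.25, adjusted p = 5.61e-05). The departure was -0.93 for Lpl, -0.78 for Cebpa and -0.52 for Pparg. Beside these stood the collagenase Mmp13 at -1.33 and the chemokine Cxcl12 at -1.17.

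The positive side held actin, matrix and YAP target genes. Their departures were 1.72 for Ctgf (SE 0.26, adjusted p = 0.00126), 1.68 for Acta2 (SE 0.16, adjusted p = 7.61e-05), 1.56 for Tagln (SE 0.20, adjusted p = 0.000502), 1.18 for Thbs1 and 0.58 for Actr3. Actb had a departure of 0.4 (SE 0.12, adjusted p = 0.0414), a call lost in 10 of the fits that left out 1 library (adjusted p from 0.0506 to 0.106).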

How the results depend on the processing

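Counts for both compounds against Ctrl stayed within 1.5 times under all alternatives run. With 1 library left out the called genes numbered 5117 to 5977, 2467 to 3122 higher and 2447 to 2855 lower. Of 216 named genes 203 could be tested under every alternative, and 190 of these kept their call and direction in each. Of the other 13, too low for some filters or fits, 9 kept them where tested. No direction reversed where a gene was called in the main fit or in the alternative. A change of sign in a gene called in neither was not counted, so for such genes these numbers say nothing of direction. RLE scaling called 5922 of the 6225 genes in the same direction and DESeq2 6031. Replicate numbers did not pair the libraries (r of same-numbered deviations -0.0479, -0.0573 and -0.00555), and a fit with the replicate block called 6299 genes, 3328 higher and 2971 lower.

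Counts against CK666 alone moved most. DESeq2 gave 1025 higher, a length correction 939 higher, and the 2 groups alone 459 called (110 higher, 349 lower, 47 at least 2-fold higher). Leaving out 1 library gave 745 to 2563 called, 242 to 1144 higher, 503 to 1419 lower and 56 to 154 at least 2-fold higher. Genes with a departure from the sum numbered 1094 to 3396, with 506 to 1936 positive and 569 to 1460 negative, and the length correction gave 1449 positive. The highest counts came without CK666 replicate 3 for the departure and without CK666 replicate 2 against CK666 alone. The cause was not tested.

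Medians of the caveolae, chemokine, Notch and Hedgehog, secreted Wnt, IGF, basement membrane, proteasome, macrophage and endothelial lists lay near 0 or rested on few genes and changed sign under at least 1 alternative. The secreted Wnt median, -0.09 in the main fit, also moved well below 0. It was -1.18 where at least 1 CPM in 3 libraries was required and -0.66 without Ctrl replicate 1. Most genes near the floor of 3 counts in Ctrl have levels and no fold. The changes given for Nt5e and Cfd rest on Ctrl values not far above that floor.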
